A study of Mus musculus with 6 samples.

Results

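Heat shock chaperones are proteins that fold, refold and hold other proteins, and many of their genes are switched on together when a cell is stressed. The members described here are 10 mouse genes chosen by symbol: the transcription factor Hsf1, the HSP70 genes Hspa1a, Hspa1b and Hspa8, the HSP110 gene Hsph1, the J-domain gene Dnajb1, the HSP90 genes Hsp90aa1 and Hsp90ab1, and the mitochondrial chaperonin genes Hspd1 and Hspe1. No measured value enters the rule, which takes the genes by name, but the members were chosen with earlier results of these data known. All 10 were among the 14490 genes in the deposited mRNA-seq values.

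The RNA came from natural killer (NK) cells, innate lymphocytes that kill infected and tumour cells, purified from the spleens of C57BL/6 mice by flow cytometry. WT mice were Mettl3fl/fl, so both Mettl3 alleles of the controls were floxed too. The cKO mice were Ncr1Cre-Mettl3fl/fl, in which a Cre recombinase carried on 1 allele (Ncr1Cre/+ in the methods) is driven by Ncr1, the gene of the NK receptor NKp46, so that deletion is directed at cells that express NKp46. Each genotype had 3 samples, and the labels do not say whether a sample was 1 mouse or several, so that p-values measure only the spread between these samples. Mettl3 encodes the catalytic subunit of the methyltransferase that places N6-methyladenosine on messenger RNA.

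HSF1 is held inactive in unstressed cells, in part by chaperones, and when unfolded proteins accumulate it forms trimers that bind heat shock elements, inverted repeats of the letters GAA and TTC. Its classical targets include the inducible HSP70 genes Hspa1a and Hspa1b, Hsph1 and Dnajb1. HSP70 proteins bind exposed stretches of unfolded proteins in cycles of ATP hydrolysis, which J-domain proteins start and HSP110 proteins reset by exchanging the nucleotide. HSP90 dimers act later, on kinases, receptors and other clients close to their folded state, and HSP60 with its lid HSP10 folds proteins inside mitochondria.

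Values are normalized counts, in which the authors divided the reads of a gene by the size factor of the sample, and are listed in order of sample number 1, 2 and 3 within a genotype. Each sample held between 55965515 and 71464042 reads of listed genes, as computed from the step that 1 read is worth in each column. Differences are log2 fold changes of cKO against WT from limma on log2(normalized count + 1), in a two-sided test, with p-values adjusted by Benjamini-Hochberg across the 14490 genes, and a gene was called where the adjusted p was under 0.05. Mettl3 itself had 1303, 1258 and 1192 normalized counts in WT and 296.9, 299.0 and 405.1 in cKO, a log2 difference of −1.92 (limma adjusted p = 2.32e-14, standard error 0.099). Of the NK marker genes, 10 of 11 names were listed, and their summed level was 12900 to 13400 CPM, counts scaled to a common total of reads on listed genes, in WT and 12400 to 12800 in cKO. In all, 36.6% of the listed genes were called, 17.8% higher and 18.8% lower in cKO. When every sample was instead brought to the same total over the listed genes (equal totals below), the calls moved to 3487 higher and 2016 lower, and the median over all genes of the log2 fold change moved from 0.0014 to 0.051.

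Promoter stretches are printed here for Hspa1a and Hsph1, which differed most between the genotypes, and for Hspe1, whose region is shared with Hspd1, because they hold the letters that HSF1 is known to bind. RefSeq windows of GRCm38.p6, from 250 bases before to 50 bases after a start site, were given for 6 of the 10 members: Hspa1a, Hspa1b, Hsph1, Hspd1, Hspe1 and Dnajb1. Each was searched for GAANNTTC and TTCNNGAA, an inverted pair of the heat shock element. Each of these letter strings reads the same on the opposite strand, and matches of one may overlap matches of the other. Capitals mark the matches, and each sequence reads 5′ to 3′ on the strand of the gene named.
Hspa1a, chr17:34972213-34972300, minus strand: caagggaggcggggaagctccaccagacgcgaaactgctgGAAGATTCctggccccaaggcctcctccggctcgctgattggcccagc
Hsph1, chr5:149636357-149636409, minus strand: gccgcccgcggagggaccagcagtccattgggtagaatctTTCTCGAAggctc
Hspe1, chr1:55088053-55088082, plus strand: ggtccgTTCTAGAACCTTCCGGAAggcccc

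The Hspa1b promoter has the same letters as the Hspa1a stretch, at chr17:34959295-34959382 on the minus strand. In both genes the match begins 104 bases before the RefSeq start site, and 247 of the 250 bases before that site are the same in the 2 genes. The Hspe1 stretch holds 3 overlapping matches, lies inside an annotated exon of the neighbouring gene Hspd1, and is also part of 1 of the 2 RefSeq windows of Hspd1, which is read from the opposite strand. Of the printed Hsph1 bases, 20 lie in an annotated Hsph1 exon. These include the marked match, which lies before the RefSeq start sites but after the annotated start of the gene. Both RefSeq windows of Hsph1 also hold matches after the start site, which are not printed. In total 5 of the 6 members with a window held either string, and neither of the 2 windows of Dnajb1 did. Hspd1 and Hspe1 are counted for the same matches, and Hspa1a and Hspa1b for the same letters. Among all 32851 windows, 7.86% held GAANNTTC, 8.52% held TTCNNGAA and 15.1% held either. Counted by gene, as for the members, 14.1% of 9908 listed genes with a window held either. A match of letters is a description and not a measured binding site.

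Across the 10 genes, 5 were higher in cKO with an adjusted p under 0.05, 5 were not called and 0 were lower, by limma with an adjusted or an unadjusted p under 0.05. This count stands beside the 17.8% of all listed genes that were called higher. Of the 11817 genes with at least 1 CPM in at least 3 samples, 2556 were called higher. The members were chosen with earlier results known, so comparisons of the 10 with all genes are descriptions and not tests. The called genes of the 10 were Hsph1, Hspa1a, Hspa1b, Dnajb1 and Hspd1. In 6 of the 10 genes every cKO sample lay above every WT sample, beside 22.7% of all listed genes. The median log2 fold change of the 10 was 0.14, against 0.0014 over the whole table. The log2 fold changes fell into 2 sizes with a gap between them: 3 genes lay between 0.80 and 0.92, and the other 7 between 0.0061 and 0.22. The summed levels of immediate early genes and of B cell marker genes were also higher in all cKO samples than in all WT samples. They were 49400 to 50200 against 45800 to 46400 CPM and 29.9 to 31.4 against 20.7 to 21.3 CPM, also without overlap when summed as normalized counts. Of the 14 immediate early genes 5 were called higher and 4 lower. The summed levels of NK and of T cell marker genes were lower in all cKO samples than in all WT samples. The part of all these genes in the differences of the heat shock genes was not tested.

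**Figure D1:**
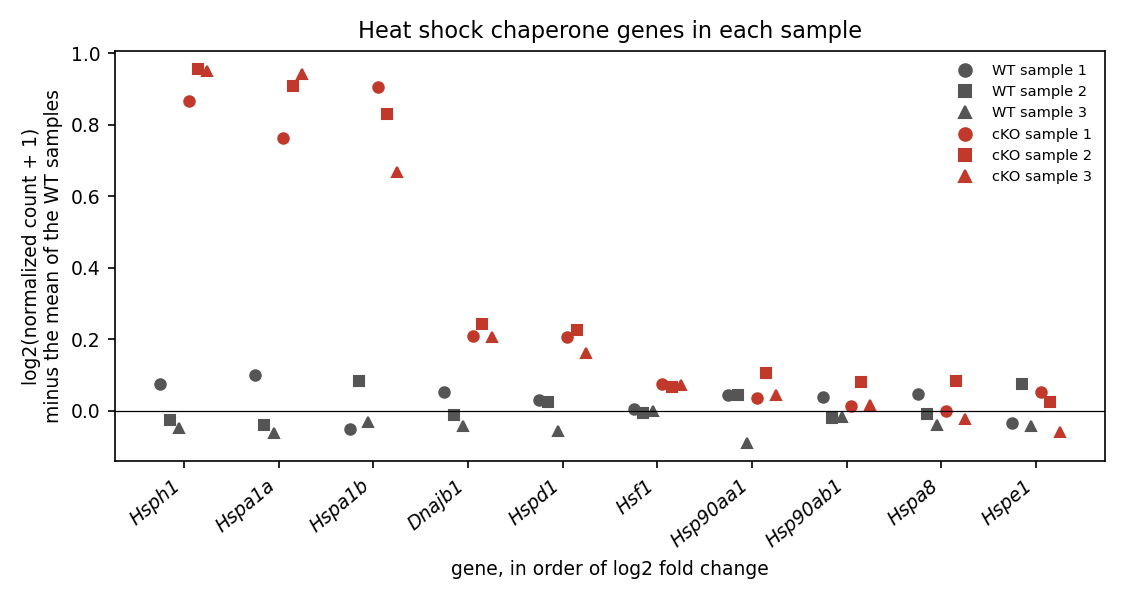
Each point is 1 sample, plotted as log2(normalized count + 1) minus the mean of the 3 WT samples, for the 10 genes in order of log2 fold change (grey: WT, red: cKO, symbols: sample number). The cKO points of Hsph1, Hspa1a and Hspa1b stand far above the WT points, those of Dnajb1, Hspd1 and Hsf1 stand just above them, and the points of the other 4 genes overlap.

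Hsf1 encodes the factor that switches on the heat shock genes (chr15:76477422-76501913, plus strand). Its normalized counts were 3775, 3742 and 3760 in WT and 3958, 3937 and 3952 in cKO. All cKO samples lay above all WT samples, and the samples of a genotype were very close to each other, with SDs of 16.5 and 11.1 around means of 3759 and 3949 (n = 3 each). The difference of 5.06% gave a log2 fold change of 0.071 (95% confidence interval −0.0093 to 0.15, standard error 0.039), which was not called (limma adjusted p = 0.165). These SDs are smaller than the counting of this many reads would give on its own, so they understate the spread. The standard error from limma is drawn towards the spread of genes of like level. With equal totals the value was 0.12 and passed the threshold (limma adjusted p = 0.0145). The activity of HSF1 is set largely by the state of the protein, which these RNA values do not measure.

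Hsph1 (chr5:149614287-149636376, minus strand) encodes HSP110, the nucleotide exchange factor of HSP70 that also helps to dissolve protein aggregates. Its normalized counts were 3622, 3376 and 3324 in WT and 6269, 6663 and 6646 in cKO. The genotypes were far apart, with 3441 ± 159 against 6526 ± 223 (WT against cKO, SD, n = 3 each), a 1.90-fold difference of the means. The log2 fold change was 0.92 (95% confidence interval 0.84 to 1.01, standard error 0.042, limma adjusted p = 1.88e-15). Among the 6945 genes with a mean of at least 1000 normalized counts, Hsph1 ranked 5 from the top by log2 fold change.

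Hspa1a and Hspa1b encode the inducible HSP70, are near-identical copies and lie close together on chromosome 17 of GRCm38. Hspa1a (chr17:34969190-34972156, minus strand) was measured at 496.5, 450.9 and 444.0 normalized counts in WT and 787.0, 869.7 and 889.8 in cKO. It rose from 464 ± 28.5 to 849 ± 54.5 (SD, n = 3 each), a log2 fold change of 0.87 (95% confidence interval 0.70 to 1.04, standard error 0.085, limma adjusted p = 5.83e-09). The lowest cKO sample was well above the highest WT sample.

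Hspa1b (chr17:34956436-34959238, minus strand) was measured at 791.5, 868.5 and 803.2 normalized counts in WT and 1536, 1458 and 1303 in cKO. Here too the genotypes did not overlap, and cKO sample 3, the highest for Hspa1a, was the lowest cKO sample for Hspa1b. The means were 821 ± 41.5 and 1432 ± 119 (SD, n = 3 each), with a log2 fold change of 0.80 (95% confidence interval 0.66 to 0.94, standard error 0.070, limma adjusted p = 7.47e-10).

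Reads may be split between these copies when they are aligned and counted. In the annotated transcripts 94.4% of aligned bases were identical. On either strand, 46.0% of the 150-base windows of Hspa1a and 40.5% of those of Hspa1b occurred also in transcripts of other genes. For Hspa1a these genes include Gm20481, which overlaps it and is not a separate copy. Summed over the 2 genes the normalized counts were 1288, 1319 and 1247 in WT and 2323, 2327 and 2193 in cKO. Relative to the level, the samples of a genotype agreed more closely for the sum than for either gene. A sum of 2 counts varies less for its size than its parts even where no reads are split, and splitting was not tested. The sum was 1285 ± 36.2 in WT and 2281 ± 76.4 in cKO (SD, n = 3 each), 0.83 higher on the log2 scale (two-sided exact permutation test, p = 0.1, the lowest that 3 samples against 3 can give). The ratio of Hspa1a to Hspa1b was 0.567 ± 0.055 in WT and 0.597 ± 0.085 in cKO (SD, n = 3 each), and the genotypes overlapped (two-sided exact permutation test, p = 0.7). An annotated gene on the opposite strand, Gm20481, covers 19.0% of the exon bases of Hspa1a, and the strand setting of the counting was not stated.

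Dnajb1 (chr8:83608193-83612653, plus strand) encodes HSP40, the J-domain partner that delivers clients to HSP70. It had 15793, 15120 and 14788 normalized counts in WT and 17608, 18015 and 17576 in cKO. Every cKO sample was above every WT sample, and the difference was much smaller than for the HSP70 and HSP110 genes above. The means of 15234 ± 512 and 17733 ± 245 (SD, n = 3 each) differed by 16.4%, a log2 fold change of 0.22 (95% confidence interval 0.15 to 0.29, standard error 0.032, limma adjusted p = 4.68e-06).

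**Figure D2:**
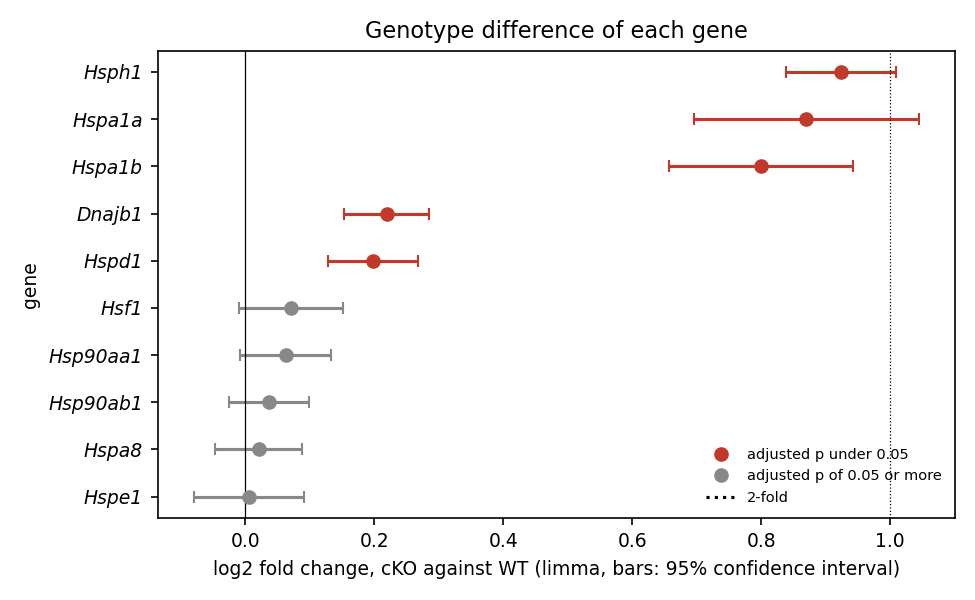
Log2 fold change of cKO against WT for each gene from limma, with bars for the 95% confidence interval (red: adjusted p under 0.05, grey: 0.05 or more, dotted line: 2-fold). Hsph1, Hspa1a and Hspa1b lie between 0.80 and 0.92, Dnajb1 and Hspd1 at 0.22 and 0.20, and the intervals of the other 5 genes include 0.

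Hspa8 (chr9:40800984-40810087, plus strand) encodes HSC70, the HSP70 that cells make without stress. Its normalized counts were 120928, 116303 and 113695 in WT and 116977, 123959 and 115106 in cKO, and the genotypes overlapped. The log2 fold change was 0.021 (95% confidence interval −0.046 to 0.088, standard error 0.033, limma adjusted p = 0.667). The interval lies far below the values of Hspa1a and Hspa1b. Without cKO sample 2, the highest, the value turned to −0.011. In the Hspa8 transcript 56.0% of 150-base windows occurred also in transcripts of 5 other annotated genes, so that its count is uncertain.

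Hsp90aa1 (chr12:110690605-110702728, minus strand) encodes HSP90-alpha, the more stress-responsive of the cytosolic HSP90 proteins. It had 49220, 49221 and 44862 normalized counts in WT and 48921, 51376 and 49249 in cKO. WT sample 3 was the lowest by far, and the other WT samples lay among the cKO samples. The log2 fold change was 0.063 (95% confidence interval −0.0076 to 0.13, standard error 0.034, limma adjusted p = 0.161), and without WT sample 3 it was 0.018. In its transcript 36.2% of 150-base windows occurred also in transcripts of 3 other annotated genes.

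Hsp90ab1 (chr17:45567775-45573271, minus strand) encodes HSP90-beta, the constitutive form. Its normalized counts of 110954, 106605 and 106688 in WT and 109153, 114324 and 109260 in cKO overlapped. A log2 fold change of 0.037 resulted (95% confidence interval −0.025 to 0.10, standard error 0.030, limma adjusted p = 0.368). With equal totals both HSP90 genes passed the threshold, Hsp90aa1 at 0.11 (limma adjusted p = 0.00654) and Hsp90ab1 at 0.087 (limma adjusted p = 0.0115).

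Hspd1 and Hspe1 encode HSP60 and HSP10 and lie head to head on chromosome 1 with a shared promoter region, part of which is printed above. Hspd1 (chr1:55077835-55088243, minus strand) was measured at 11103, 11046 and 10450 normalized counts in WT and 12542, 12709 and 12142 in cKO. It rose by 14.7% without overlap of the genotypes, from 10866 ± 362 to 12464 ± 291 (SD, n = 3 each), a log2 fold change of 0.20 (95% confidence interval 0.13 to 0.27, standard error 0.034, limma adjusted p = 3.93e-05). In its transcript 18.6% of 150-base windows occurred also in that of Hspd1-ps3.

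Hspe1 (chr1:55088132-55091307, plus strand) was measured at 4847, 5228 and 4812 normalized counts in WT and 5145, 5042 and 4761 in cKO. The genotypes overlapped, with the highest value in WT sample 2 and the lowest in cKO sample 3. Its log2 fold change was 0.0061 (95% confidence interval −0.080 to 0.092, standard error 0.042, limma adjusted p = 0.929), and it turned negative in 4 of the 6 fits that left out 1 sample. In the Hspe1 transcript 14.1% of 150-base windows occurred also in that of AC117239.2.

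Ratios within a sample do not depend on the size factor, and 7 pairs were compared. The ratio of Hspd1 to Hspe1 was 2.291, 2.113 and 2.172 in WT and 2.438, 2.521 and 2.551 in cKO. All cKO ratios were above all WT ratios, with means of 2.19 ± 0.091 and 2.50 ± 0.058 (SD, n = 3 each; two-sided exact permutation test, p = 0.1, adjusted over the 7 pairs 0.14). The exons of the 2 genes overlap by 112 bases on opposite strands, and without a stated strand setting reads there cannot be assigned.

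Relative to Hspa8, Hsph1 was 0.90 higher on the log2 scale in cKO, Hspa1a 0.85, Hspa1b 0.78 and Dnajb1 0.20. None of these 4 ratios overlapped between genotypes, and each reached the smallest exact p of 0.1 (two-sided exact permutation test, adjusted p = 0.14 over the 7 pairs). The ratio of Dnajb1 to Hspa8 was almost the same in the WT samples, 0.1306, 0.1300 and 0.1301, and was 0.1505, 0.1453 and 0.1527 in the cKO samples. The ratio of Hsp90aa1 to Hsp90ab1 was 0.442 ± 0.021 in WT and 0.449 ± 0.0013 in cKO (SD, n = 3 each), and the genotypes overlapped (two-sided exact permutation test, p = 0.7).

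**Figure D3:**
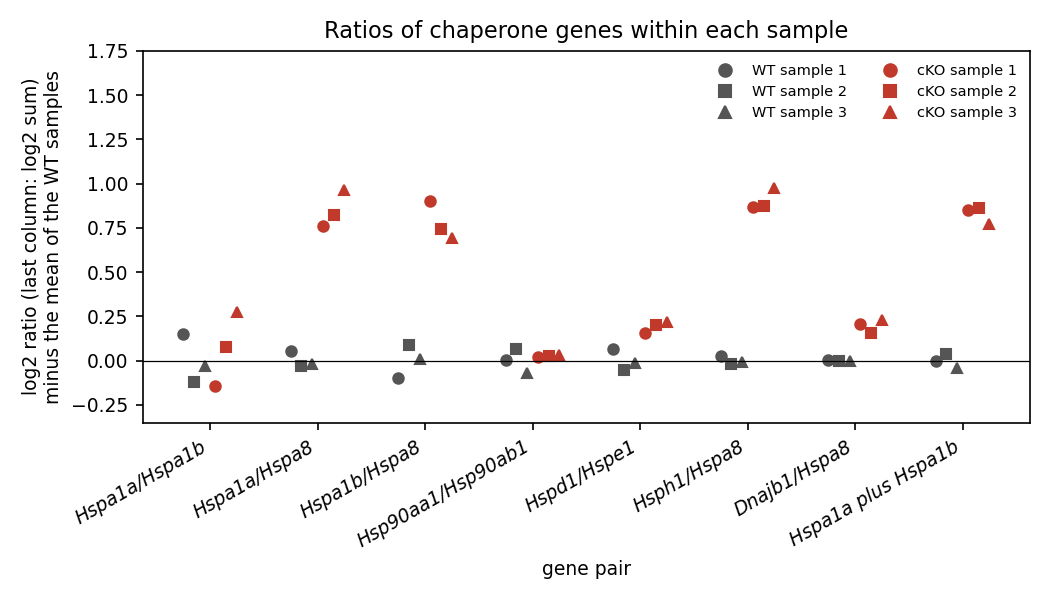
Log2 ratio of 2 genes within each sample, and in the last column the log2 of the sum of Hspa1a and Hspa1b, minus the mean of the WT samples (grey: WT, red: cKO, symbols: sample number). The ratios Hspa1a/Hspa1b and Hsp90aa1/Hsp90ab1 overlap between genotypes, and in the other 5 ratios and the sum every cKO point is above every WT point.

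The 10 genes spanned a wide range of levels, compared here as normalized counts per kb of annotated exon. This length joins the exons of all annotated transcripts of a gene and can be far longer than 1 transcript. For Hspa8 it is 4301 bases, where the longest protein-coding transcript has 2394, and for Hspe1 1474 against 774. The order of genes of like level therefore depends on the length used. Hsp90ab1 was highest in WT with 36039 ± 830 per kb, followed by Hspa8 with 27197 ± 852, Hsp90aa1 with 12151 ± 640, Dnajb1 with 4755 ± 160, Hspd1 with 4113 ± 137 and Hspe1 with 3367 ± 156 (SD, n = 3 each). Below them lay Hsf1 with 529.5 ± 2.33, Hsph1 with 473.5 ± 21.9, and the inducible HSP70 genes, Hspa1b with 292.9 ± 14.8 and Hspa1a with 156.3 ± 9.62 per kb. The 3 genes with the largest differences were also the 3 lowest in WT. Of the 9 pairs of neighbours in the order by joined exon length, 0 overlapped in their samples, in either genotype. That covers the spread between samples and not the choice of length.

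In cKO, Hsph1 reached 898.2 ± 30.7 per kb and stood above Hsf1 at 556.3 ± 1.57. This change of place rests on the joined exon lengths, 7266 bases for Hsph1 and 7099 for Hsf1. The longest protein-coding transcripts have 3802 and 2104 bases, and with these lengths Hsph1 would stay below Hsf1. Hspa1b reached 511.0 ± 42.3 and Hspa1a 286.1 ± 18.4 per kb (SD, n = 3 each). The inducible HSP70 genes thus stayed below the constitutive Hspa8, at 27594 ± 1085 per kb, in both genotypes. Summed over the 10 genes, the normalized counts were 321530, 311960 and 303625 in WT and 322897, 338350 and 320886 in cKO, so that the genotypes overlapped, with cKO 4.80% higher on average. As CPM, which brings all samples to the same total, the sums were 4701 ± 116 in WT and 5099 ± 96.5 in cKO (SD, n = 3 each), 8.46% higher and without overlap. Whether the summed level of the genotypes overlaps thus depends on the scaling. Hspa8, Hsp90aa1 and Hsp90ab1 held 86.3% of that level over all samples, and Hsph1, Hspa1a and Hspa1b 2.12%.

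**Figure D4:**
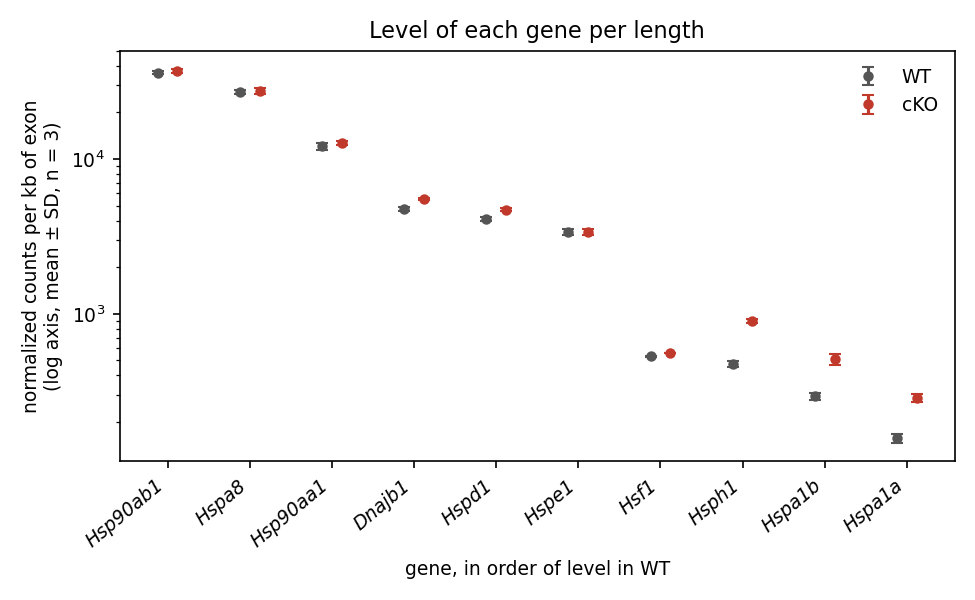
Normalized counts per kb of annotated exon on a log axis, mean ± SD of 3 samples, in order of the WT level (grey: WT, red: cKO). Hsp90ab1 and Hspa8 are highest at 36039 and 27197 per kb in WT, and Hsph1, Hspa1b and Hspa1a are lowest and show the visible gaps between genotypes.

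The genes whose values over the 6 samples were most like those of Hspa1a, by Pearson correlation of log2 values among 7820 genes outside the 10 with a mean of at least 10 CPM, were Rab27a (r = 0.9982), Sh2b1 (r = 0.9976), Birc5 (r = 0.9974), Pik3cd (r = 0.9971) and Atp8b2 (r = 0.9971). These r are descriptions without a test: the 6 samples fall into 2 genotypes, and genes that differ between genotypes correlate for that alone. Rab27a encodes a small GTPase needed for the release of cytotoxic granules, and it rose from 5587 ± 160 to 7138 ± 219 normalized counts (SD, n = 3 each; log2 fold change 0.35, standard error 0.037, limma adjusted p = 2.64e-08). Birc5, the gene of the cell division protein survivin, rose from 552 ± 15.8 to 877 ± 44.5 (SD, n = 3 each; log2 fold change 0.67, standard error 0.078, limma adjusted p = 1.49e-07). Pik3cd encodes a catalytic subunit of phosphoinositide 3-kinase and had a log2 fold change of 0.37, Sh2b1, an adaptor gene, of 0.21, and Atp8b2, a phospholipid flippase gene, of 0.094.

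The wider chaperone network was read from 8 lists with 109 gene names, of which 95 were listed. Of these, 17 were higher and 33 lower in cKO, and 45 were not called. The 50 calls make up 52.6% of the 95, beside 36.6% of all listed genes. Of all listed genes 2737 had a mean under 1 CPM, but only 2 of the 95. Among genes with at least 1 CPM in at least 3 samples, 51 of 93 were called, beside 5302 of 11817. The median log2 fold change of the 95 was −0.058. With equal totals the calls split evenly, 22 higher and 22 lower, so that the counts in each direction depend on the scaling. The calls of all genes moved too. Higher calls made up 34% of the calls in the lists, beside 48.5% over all genes, and with equal totals 50% beside 63.4%. Under both scalings the share in the lists was thus below that of all genes.

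Of the other HSF genes and the HSF1-binding protein gene Hsbp1, 3 of 5 were listed. Hsf4 rose from 957 ± 97.6 to 1150 ± 82.3 normalized counts (SD, n = 3 each; log2 fold change 0.27, standard error 0.074, limma adjusted p = 0.00573). Hsf2, whose product can form trimers together with HSF1, fell from 1024 ± 36.2 to 811 ± 21.6 (SD, n = 3 each; log2 fold change −0.34, standard error 0.068, limma adjusted p = 2.97e-04). Neither gene overlapped between genotypes.

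Of the other HSP70 and HSP110 genes, 7 of 9 were listed, 2 of them higher and 4 lower. Hspa2, best known from the testis, rose the most, from 3552 ± 105 to 3973 ± 183 normalized counts (SD, n = 3 each; log2 fold change 0.16, standard error 0.043, limma adjusted p = 0.00447). Hspa13 fell the most, from 8461 ± 187 to 6763 ± 181 (SD, n = 3 each; log2 fold change −0.32, standard error 0.035, limma adjusted p = 4.68e-08).

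Among the 32 listed of 35 other J-domain genes, 4 were higher, 15 lower and 13 not called, with a median log2 fold change of −0.12. Dnajc12, which encodes a cochaperone of aromatic amino acid hydroxylases, had 795.4, 744.7 and 818.8 normalized counts in WT and 441.3, 390.8 and 369.4 in cKO. Its log2 fold change of −0.97 (limma adjusted p = 2.41e-09, standard error 0.090) was the largest fall in any of the 8 lists. Dnaja3, the gene of a mitochondrial J-domain protein, rose from 715 ± 53.1 to 848 ± 27.7 normalized counts (SD, n = 3 each; log2 fold change 0.25, standard error 0.076, limma adjusted p = 0.0121). This last call was lost without WT sample 2 and without cKO sample 2, with adjusted p up to 0.0706.

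All 11 genes of HSP70 nucleotide exchange and client handling were listed, with 3 higher and 2 lower. Grpel2, the gene of an exchange factor of mitochondrial HSP70, rose from 932 ± 31.0 to 1283 ± 36.5 normalized counts (SD, n = 3 each; log2 fold change 0.46, standard error 0.063, limma adjusted p = 1.69e-06). Bag6, whose product escorts tail-anchored and misplaced membrane proteins, fell from 21614 ± 272 to 19734 ± 60.8 (SD, n = 3 each; log2 fold change −0.13, standard error 0.030, limma adjusted p = 8.78e-04).

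Of the 17 genes of HSP90 cochaperones and of the mitochondrial HSP90 protein TRAP1, 7 were higher and 5 lower. Ttc4 rose from 1018 ± 20.4 to 1316 ± 20.5 normalized counts (SD, n = 3 each; log2 fold change 0.37, standard error 0.061, limma adjusted p = 2.17e-05). Cdc37, which hands kinases to HSP90, fell from 25753 ± 527 to 21086 ± 161 (SD, n = 3 each; log2 fold change −0.29, standard error 0.030, limma adjusted p = 1.80e-08). The HSP90 genes themselves lay between these values, at 0.063 and 0.037.

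The 14 genes of the cytosolic chaperonin TRiC and of prefoldin, which hands actin and tubulin to it, held 5 lower and 0 higher, and 9 were not called by limma (7 lower and 0 higher at an unadjusted p under 0.05). Of the called genes Pfdn2, a prefoldin subunit gene, fell the most, by 0.22 on the log2 scale (limma adjusted p = 0.00236, standard error 0.055). Pfdn4 had a lower log2 fold change of −0.24 and was not called (limma adjusted p = 0.0541). Only 3 of 10 small heat shock protein genes were listed, and limma called 0 of them, also at an unadjusted p under 0.05. Of the 8 mitochondrial protease genes, 1 was called, Afg3l2, which fell by 0.12 on the log2 scale (limma adjusted p = 0.0230, standard error 0.039), a call that was lost in 5 of 13 alternatives, among them equal totals and each cKO sample left out.

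**Figure D5:**
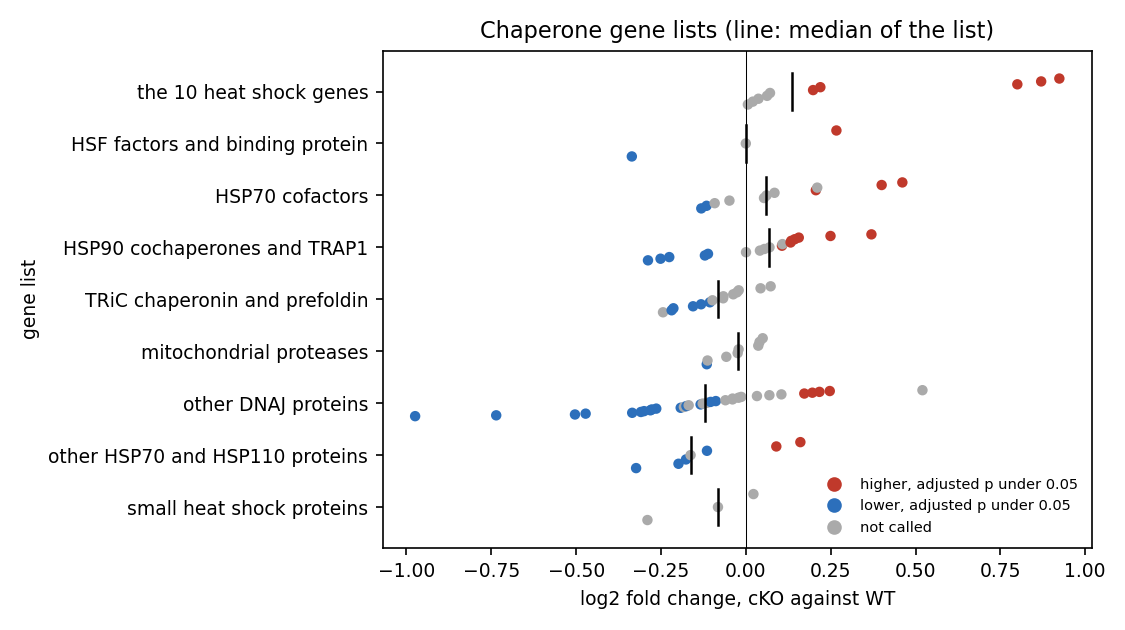
Log2 fold change of cKO against WT for each listed gene of the 10 heat shock genes and of the 8 other chaperone lists (1 point a gene, red: higher, blue: lower, grey: not called at an adjusted p under 0.05, black line: median of the list). The highest point is Hsph1 at 0.92 and the lowest is Dnajc12 at −0.97, and the medians lie between −0.16 and 0.14.

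Genes of the early response to cell dissociation and genes of other splenic cells were read beside these results. Heat shock genes and immediate early genes are both known to respond to the handling of tissue. Of 14 immediate early genes, 5 were higher, 4 lower and 5 not called, and their summed level was 45800 to 46400 CPM in WT and 49400 to 50200 in cKO. The most abundant of them, Fosb, fell from 656782 ± 5740 to 559615 ± 5508 normalized counts (SD, n = 3 each; log2 fold change −0.23, standard error 0.031, limma adjusted p = 1.34e-06). The 5 that rose, named after their values were seen, were Fos, Dusp1, Socs3, Junb and Zfp36. Fos rose the most, from 95998 ± 3058 to 169891 ± 4713 normalized counts (SD, n = 3 each; log2 fold change 0.82, standard error 0.031, limma adjusted p = 8.01e-17), a log2 fold change between those of Hspa1b and Hspa1a. The log2 fold changes of the other 4 were 0.53 for Dusp1, 0.33 for Socs3, 0.24 for Junb and 0.22 for Zfp36, the last close to that of Dnajb1. The other 3 that fell beside Fosb were Btg2, Atf3 and Nr4a1, at −0.28, −0.099 and −0.084.

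B cell marker genes, 9 of 9 listed, summed to 20.7 to 21.3 CPM in WT and 29.9 to 31.4 in cKO, with Cd22 the most abundant at 10.3, and 8 were called higher. T cell marker genes, 7 of 8 listed, summed to 201 to 218 CPM in WT and 142 to 151 in cKO. Cd28, the most abundant at a mean of 151, held most of this sum. Of the 7, 2 were called lower and 5 were not called, with log2 fold changes from −0.747 to 0.655. Myeloid marker genes, 8 of 11 listed, summed to 227 to 235 CPM in WT and 233 to 243 in cKO, with Csf1r highest, and 3 were called higher and 2 lower. Erythroid marker genes, 6 of 7 listed, summed to 12.4 to 13.3 CPM in WT and 11.1 to 12.9 in cKO, and limma called 0 of them (1 at an unadjusted p under 0.05). Of the NK marker genes 1 was higher and 8 were lower. No listed marker was at 0 in any sample. The part of these cells and of the early response in the differences of the heat shock genes was not tested, and in bulk RNA fewer cells of a type and less RNA per cell cannot be told apart.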

How the data were processed

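Poly(A) RNA of sorted splenic NK cells, 3 WT and 3 cKO samples, was sequenced as paired-end reads. The authors used HISAT2 for alignment to GRCm38 and featureCounts for gene counts, which they divided by DESeq2 size factors. The methods and the submitters' processing notes name different versions of these tools, and the notes name HISAT2 2.0.5, featureCounts 1.5.0-p3 and DESeq2 1.16.1. The strand setting is not given in the sources used here. The deposited sample columns hold this signal, the count divided by the size factor, for 14490 genes. Their values were whole multiples of 1 step per sample (tolerance 0.05), from which reads on listed genes followed. The authors' mean, fold change and p-value columns were not used.

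limma 3.58.1 in R 4.3.3, with a variance trend, was fitted to log2(value + 1) with genotype as the only term. A filter of at least 1 in at least 3 samples removed no gene, and the added 1 draws low values together. Single ratios were compared by exact permutation over the 20 assignments of 6 samples. Positions and exon lengths are from GENCODE for GRCm38, matched by symbol for 97.3% of genes, and promoter sequences from RefSeq (GRCm38.p6). The 19 symbols turned into spreadsheet dates and 1 repeated symbol were kept in the fit and not named.

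The members, gene lists and tests were chosen with earlier results of these data known. Named are the 10 members, Mettl3, the called gene with the largest rise and fall in each other chaperone list (mean of at least 1 CPM), the 5 genes most correlated with Hspa1a, and the top gene of marker lists. The alternatives changed the pseudocount to 0.1, dropped the filter or raised it to 1 CPM, scaled samples to equal totals, added the replicate number as a block, or left out each sample. limma-voom weights and a correction for GC content and length were added after the data were seen.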

Additional observations from a re-analysis of the deposited data

How the results depend on the processing

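The 5 calls among the 10 heat shock genes were Hsph1, Hspa1a, Hspa1b, Dnajb1 and Hspd1, and each kept its call and direction under all 13 alternatives run. Their log2 fold changes lay between 0.899 and 0.973 for Hsph1, 0.835 and 0.924 for Hspa1a, 0.748 and 0.866 for Hspa1b, 0.198 and 0.269 for Dnajb1 and 0.17 and 0.248 for Hspd1. With equal totals 8 of the 10 were called, as Hsf1, Hsp90aa1 and Hsp90ab1 passed the threshold at 0.12, 0.11 and 0.087 on the log2 scale, and leaving out 1 sample left 5 to 5. With equal totals 5503 of the 14490 genes were called, 3487 of them higher, where 2576 were higher with the authors' size factors. The median of all genes was 0.051 with equal totals, where it was 0.0014 with the authors' size factors. Called genes with 1 sample left out numbered 39 to 46 in the other chaperone lists and 4417 to 4922 over all genes, with fewer samples in each fit.

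Leaving out 1 sample turned the sign of small values, which then reached at most 0.045 for Hspa8, 0.044 for Hspe1, 0.057 for the log2 ratio of Hsp90aa1 to Hsp90ab1 and 0.18 for that of Hspa1a to Hspa1b. Hspa8 went to −0.011 without cKO sample 2, and Hspe1 to −0.010, −0.016, −0.017 and −0.0028 without WT sample 1, WT sample 3, cKO sample 1 and cKO sample 2. The log2 ratio of Hsp90aa1 to Hsp90ab1 went to −0.010 without WT sample 3, and that of Hspa1a to Hspa1b to −0.031 without cKO sample 3. Afg3l2 lost its call in 5 alternatives, Dnaja3 in 2 and Atp8b2 in 1, without cKO sample 3.

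With the replicate number as a block, 5 of the 10 genes, 52 genes of the other lists and 5543 of all genes were called. Deviations of same-numbered samples correlated at −0.024, 0.12 and 0.065 over 11055 genes, so the samples were taken to share only a number. The numbers 1, 2 and 3 did not each correlate best with their own number. With sign flips within pairs the smallest possible p is 0.25.

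The count tests listed as alternatives, edgeR and DESeq2 on recovered reads, were not run. With 3 samples a group, exact tests of single ratios cannot fall below p = 0.1. Reads shared with other annotated genes limit Hspa1a, Hspa1b, Hspa8 and Hsp90aa1, where 36.2% to 56.0% of 150-base windows recur in transcripts of other genes. For Hspa1a these include the overlapping gene Gm20481 on the opposite strand.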
